A study of Mus musculus with 6 samples.

Results

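Oxidative phosphorylation subunits are the nuclear-encoded proteins of the respiratory chain and ATP synthase. Their genes were taken by symbol (Nduf a, b, c, s and v genes with a number, Sdha to Sdhd, Uqcr, Cox4 to Cox8, Atp5, Cyc1 and Cycs, without assembly factors and pseudogenes). That gave 86 genes out of 19505 named on the array, each with 1 row of values. Of these 35 belong to complex I, 4 to complex II, 9 to complex III, 20 to complex IV and 17 to complex V, and Cycs, the mobile carrier cytochrome c, stands on its own. Ndufa4 and Ndufa4l2 carry complex I names but are counted with complex IV, where the Ndufa4 protein sits. No row of the 13 subunits encoded by mitochondrial DNA is named in the annotation, so they were not analysed here.

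The livers came from male C57BL/6 mice aged 8 weeks, 3 HMGB2-KO and 3 WT, with 1 Clariom S mouse array per liver. HMGB2 is an abundant DNA-bending chromatin protein, and the design asks which genes go with its loss. The labels give no Cre driver, deleted exon, breeding scheme or treatment, and they number the animals without saying whether they were littermates. Labelling is described as done in duplicate, but each liver has 1 set of values. p-values therefore measure only the spread between these livers. The RNA is of liver tissue, so fewer cells of a type and less RNA per cell cannot be told apart.

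Complex I passes electrons from NADH, and complex II passes those of succinate, to ubiquinone. Complex III hands them on to cytochrome c and complex IV to oxygen, and the proton gradient built on the way drives ATP synthesis by complex V. Hepatocytes are rich in mitochondria and use this ATP for gluconeogenesis, urea synthesis and secretion. Most subunit genes are expressed in all tissues, and a few complex IV genes have forms typical of muscle, lung or testis.

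Unless another scale is named, a value below is a log2 value relative to an unstated baseline of its row, minus the median of its array. Such a value shows differences between livers but not how strongly a gene is expressed, so the tissue itself cannot be checked by marker levels, and a fold change is HMGB2-KO over WT. Hmgb2 itself was at -0.66, -0.33 and -0.43 in HMGB2-KO livers 1 to 3, against 0.47, 0.36 and 0.42 in WT livers 1 to 3. All 6 livers thus lie on the side of their label, although in limma the adjusted p of Hmgb2 over all genes was 0.645.

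The array of WT liver 2 stood apart. As deposited it had a median of 0.26, against -0.05 to 0.01 on the other 5 arrays. On it 1414 rows of olfactory and vomeronasal receptors had a median of 0.54 and the 20 plasma protein genes one of -0.01, with the 86 subunit genes in between at 0.15. The subunit median as deposited lay at 0.06, 0.04 and 0.10 on the HMGB2-KO arrays and at 0.04 and 0.07 on the arrays of WT livers 1 and 3. Centring subtracts the array median, so it puts the subunits of WT liver 2 at -0.10, the lowest of the 6 livers.

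**Figure D1:**
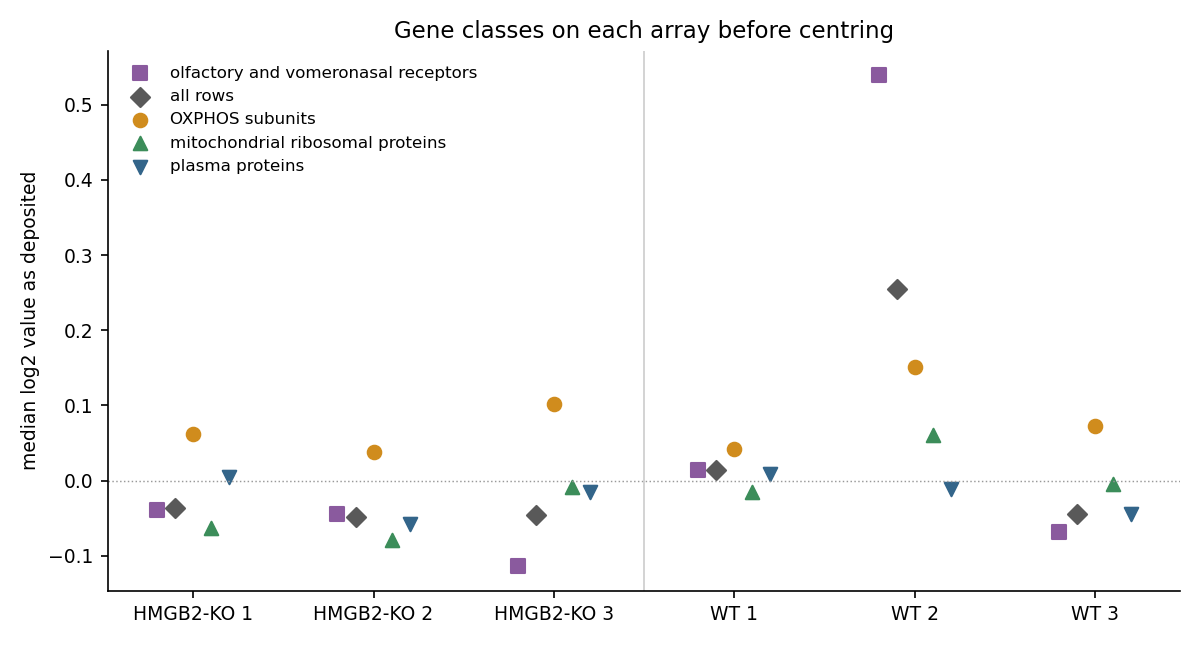
Median log2 value as deposited (y axis) of 5 gene classes on each of the 6 arrays (x axis, HMGB2-KO livers left, WT livers right), 1 point per class and array. On WT liver 2 the classes spread from -0.01 for plasma proteins to 0.54 for olfactory and vomeronasal receptors, with the oxidative phosphorylation (OXPHOS) subunits at 0.15.

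No subunit gene differed between the genotypes after adjustment. In limma's fit over all genes 0 of the 86 passed an adjusted p of 0.05, the smallest adjusted p among them being 0.994, and 0% of all genes passed. At an unadjusted p of 0.05 Atp5k alone was counted, 1 of 86 or 1.16%, beside 3.68% of all genes and 1.06% for higher values alone. The 95% confidence interval of the log2 fold change held 0 for the other 85 genes. The median log2 fold change of the subunits was 0.09, with 64 of 86 above 0 (74.4%, beside 49.5% of all genes, whose median was -0.00). With the values as deposited the same median was -0.03, with 29 of 86 above 0 beside 23% of all genes, whose median was -0.12. No subunit gene passed the unadjusted threshold as deposited, beside 4.85% of all genes. Centred on the plasma protein genes, 32 of 86 were above 0 (beside 24.4%) and 0 passed it (beside 4.71%). These scales differ only by a constant for each array. The distance between the subunits and all genes, 0.09, is therefore the same on each by arithmetic. It was 0.08 with quantile normalization and 0.07 with array weights. The direction of the subunits depends on where the arrays are centred.

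The distance of 0.09 between the subunits and all genes went with a single array. Without WT liver 2 the subunits had a median of 0.01, with 49 of 86 above 0 (57.0%, beside 47.7% of all genes), lay 0.02 above the median of all genes, and 0 passed the unadjusted threshold (beside 3.24%). Without any of the other 5 livers the median stayed between 0.07 and 0.14.

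Liver by liver, the centred subunit median was 0.10, 0.09 and 0.15 in HMGB2-KO livers 1 to 3, against 0.03, -0.10 and 0.12 in WT livers 1 to 3. WT liver 3 lies above HMGB2-KO livers 1 and 2, so the genotypes overlap. WT liver 2 held the lowest of the 6 values for 54 of 86 subunit genes (62.8%, beside 22.3% of all genes), and for all 4 genes of complex II and 15 of the 17 of complex V. HMGB2-KO liver 3 held the highest for 30 of 86 (34.9%, beside 17.6% of all genes). As deposited, WT liver 2 was the lowest for 7 and the highest for 38 of the 86.

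**Figure D2:**
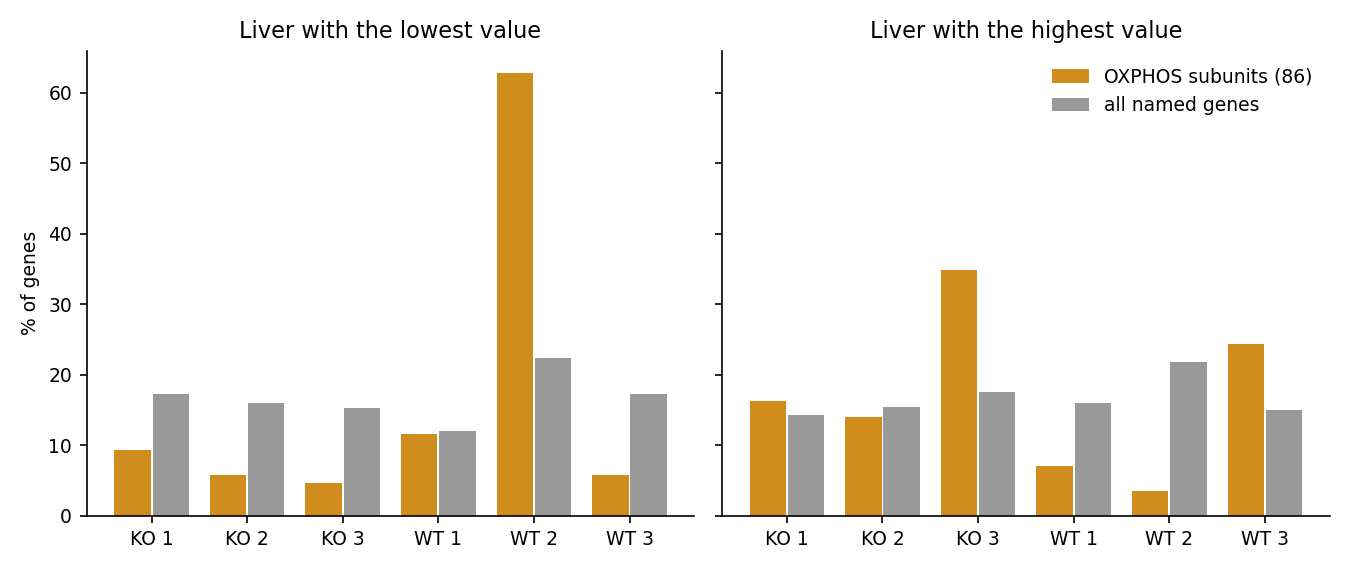
Share of genes (y axis, %) for which each liver (x axis, HMGB2-KO left, WT right) holds the lowest (left panel) or the highest (right panel) of the 6 centred values, for the 86 OXPHOS subunit genes and for all named genes. WT 2 is the lowest liver for 62.8% of the subunit genes, and KO 3 the highest for 34.9%.

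**Figure D3:**
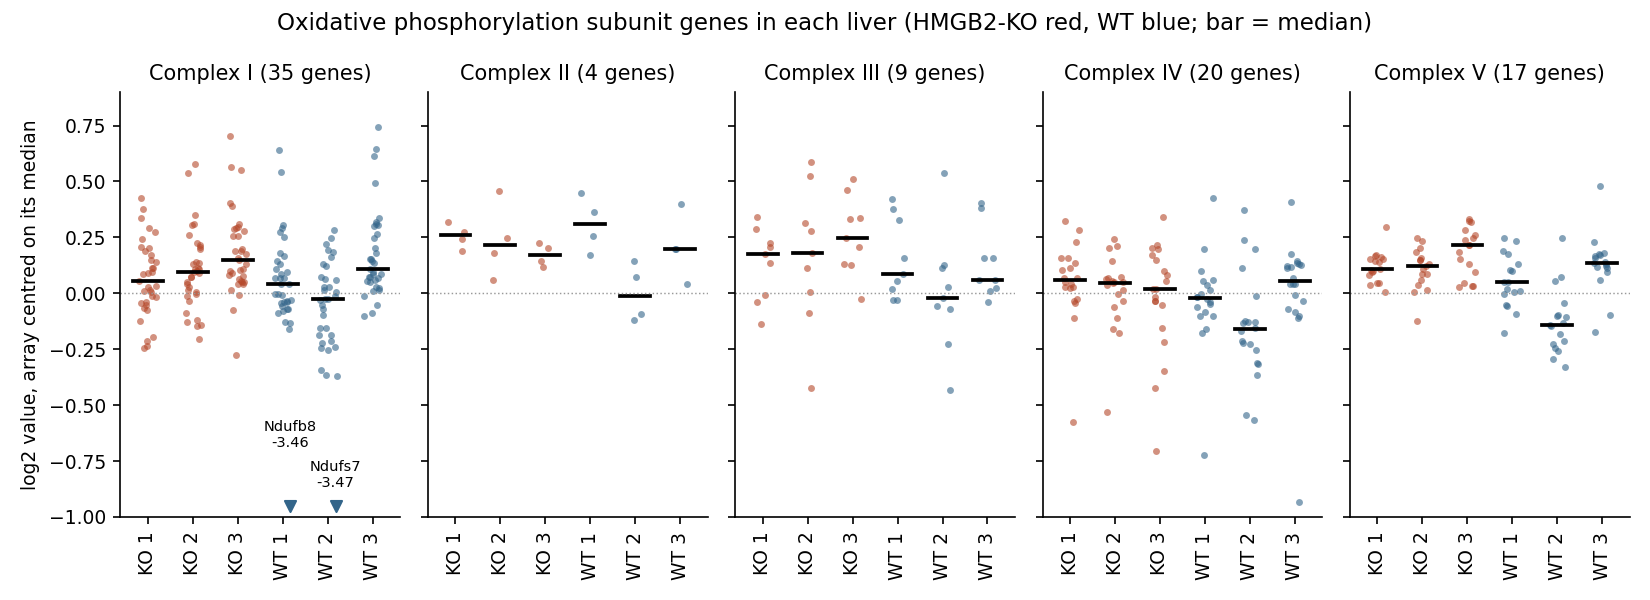
Centred log2 values (y axis) of the subunit genes of complex I to V (panels) in each liver (x axis), 1 point per gene, with HMGB2-KO livers in red, WT livers in blue and a bar at the median; triangles mark the values -3.46 (Ndufb8) and -3.47 (Ndufs7), which lie below the axis. The bar of WT 2 is the lowest of its panel for each complex, and the points of the other 5 livers overlap.

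Markers of other liver cells were set beside these values. The plasma protein genes of hepatocytes were higher for 19 of 20 genes, with a median log2 fold change of 0.07, and their centred median was -0.27 in WT liver 2 against -0.01 to 0.04 in the other 5 livers. Kupffer cell and macrophage markers were higher for 11 of 11 measured genes. Their centred medians were 0.53, 0.41 and 0.73 in HMGB2-KO livers against 0.26, 0.27 and 0.40 in WT livers. As deposited the genotypes overlap, with WT liver 2 at 0.52, above HMGB2-KO livers 1 and 2 at 0.49 and 0.36. After centring, 0 of these markers passed even an unadjusted p of 0.05. Cholangiocyte markers were higher for 2 and lower for 6 of 8, with a median of -0.25. Their centred medians were -0.13, -0.15 and -0.13 in HMGB2-KO livers against 0.16, -0.06 and 0.04 in WT livers. As deposited they were -0.17, -0.20 and -0.17 against 0.17, 0.20 and -0.01, so the genotypes overlap on neither scale. Of the 8, 2 passed an unadjusted p of 0.05, beside 3.68% of all genes. Stellate and fibroblast markers were higher for 6 of 10 (median 0.02, 1 past that p). Erythroid markers were higher for 0 of 2 (median -0.15, 0 past that p) and brown fat markers for 3 of 6 (median -0.10, 1 past that p). Lymphocyte markers were higher for 7 of 7 (median 0.12, 0 past that p), but WT liver 2 had the highest liver median, 0.20. HMGB2-KO livers were at 0.19, 0.15 and 0.12, and WT livers 1 and 3 at -0.08 and -0.09. Sinusoidal endothelial markers were higher for 6 of 10 (median 0.03, 2 past that p). The part of these markers in the subunit values was not tested. The values of subunit genes varied less than those of all genes. Their median spread within a genotype was a log2 SD of 0.14, beside 0.19 for all genes. Of the 86, 72 varied by under 0.5 over the 6 livers (83.7%, beside 46.6%). They were not compared with genes of like signal, which these values do not show.

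In complex I, the NADH dehydrogenase, 27 of 35 genes were above 0 with a median log2 fold change of 0.05, or 7 of 35 and -0.07 with the values as deposited. Without WT liver 2 it was 18 of 35, with a median of 0.00. None passed an unadjusted p of 0.05. Ndufb7, an accessory subunit of the membrane arm, had the smallest p and passed that threshold without WT liver 3. It was at 0.21, 0.11 and 0.11 in HMGB2-KO livers, against -0.08, -0.37 and 0.07 in WT livers. The groups do not overlap, the log2 fold change was 0.26 (SE 0.15, limma adjusted p = 0.994), and it was 0.14 without WT liver 2.

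Ndufa3, another accessory subunit of the membrane arm, was at 0.08, 0.26 and 0.13 in HMGB2-KO livers, against -0.00, -0.19 and 0.07 in WT livers. Its groups do not overlap either, at a log2 fold change of 0.20 (SE 0.13), or 0.12 without WT liver 2 and 0.08 as deposited. Ndufs1, which carries iron-sulfur clusters of the electron path, was at 0.11, 0.23 and 0.11 in HMGB2-KO livers, against -0.07, 0.06 and -0.05 in WT livers. Here WT liver 2 was the highest WT liver, and the log2 fold change was 0.17 (SE 0.12), or 0.05 as deposited. Ndufv1, the subunit that takes electrons from NADH onto its flavin, was at 0.29, 0.10 and 0.08 in HMGB2-KO livers, against 0.04, -0.05 and 0.01 in WT livers. HMGB2-KO liver 1 carried much of that difference of 0.16 (SE 0.12), which was 0.09 without it and 0.04 as deposited.

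The greatest fold changes of complex I came from single arrays. Ndufs7, which carries the last iron-sulfur cluster before ubiquinone, was at 0.42, 0.54 and 0.70 in HMGB2-KO livers, against 0.54, -3.47 and 0.75 in WT livers. WT liver 2 alone is low, and the log2 fold change of 1.28 (SE 1.00) was -0.09 without it. Ndufb8, an accessory subunit of the membrane arm, was at -0.23, -0.21 and -0.28 in HMGB2-KO livers, against -3.46, -0.07 and 0.09 in WT livers. There WT liver 1 alone is low, and the log2 fold change of 0.91 (SE 0.85) was -0.25 without it. These were the only 2 of the 86 genes whose values spanned more than 1 log2 over the 6 livers (2.33%, beside 10.7% of all genes).

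Ndufv2, an iron-sulfur subunit next to Ndufv1, had the lowest log2 fold change of complex I and the widest range after these. It was at -0.24, 0.20 and 0.41 in HMGB2-KO livers, against 0.04, -0.01 and 0.62 in WT livers. The livers numbered 3 are the highest of both genotypes, and the log2 fold change of -0.09 (SE 0.23) turned to 0.11 without WT liver 3. Ndufa6, an accessory subunit of the matrix arm, lay among the narrowest, between -0.01 and 0.15 in all livers. Ndufb4 and Ndufb4b are close copies whose rows may share sequence, so their single values are uncertain. They were at 0.05 (SE 0.14) and 0.10 (SE 0.16), or -0.07 and -0.02 as deposited and 0.01 and -0.02 without WT liver 2.

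Complex II, succinate dehydrogenase, also serves in the citric acid cycle, and it has 4 genes. Its median log2 fold change was 0.05 with 3 of 4 above 0, or -0.07 with 1 of 4 as deposited and -0.04 with 1 of 4 without WT liver 2. Sdhb, the iron-sulfur subunit, was at 0.32, 0.18 and 0.15 in HMGB2-KO livers, against 0.17, -0.09 and 0.20 in WT livers. Its log2 fold change was 0.12 (SE 0.13), or 0.03 without WT liver 2. Sdha, the flavoprotein that oxidises succinate, was at 0.19, 0.25 and 0.20 in HMGB2-KO livers, against 0.36, 0.14 and 0.20 in WT livers (-0.02, SE 0.12). The membrane anchors Sdhc (0.01, SE 0.15) and Sdhd (0.08, SE 0.14) lay within their error of 0, and both lay on its lower side as deposited and without WT liver 2. For all 4 genes the groups overlap, and WT liver 2 was the lowest liver.

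Complex III, the cytochrome bc1 complex, had a median of 0.14 with 5 of 9 genes above 0, or 0.02 with 5 of 9 as deposited. The median was 0.11 without WT liver 2, where 6 of 9 genes were above 0, and 0.08 without WT liver 1. It was 0.09 without HMGB2-KO liver 2 and likewise without HMGB2-KO liver 3. The complex V median was above that of complex III without WT liver 1 or 3 and without HMGB2-KO liver 2 or 3. The complex III median was above 0 under each of the 16 settings in the plot of medians by setting. With all livers no gene of complex III passed the unadjusted threshold, but Cyc1 passed it without WT liver 1 and without HMGB2-KO liver 1. Whether complex III differs from the other complexes was not tested.

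Cyc1, the cytochrome c1 that passes electrons to cytochrome c, was at 0.34, 0.59 and 0.51 in HMGB2-KO livers, against 0.38, 0.03 and 0.06 in WT livers. WT livers 2 and 3 are low, while WT liver 1 lies above HMGB2-KO liver 1. The log2 fold change was 0.33 (SE 0.15, 95% confidence interval -0.01 to 0.66, limma adjusted p = 0.994), or 0.21 as deposited. Cyc1 passed an unadjusted p of 0.05 without WT liver 1 and without HMGB2-KO liver 1.

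Uqcr10, a small accessory subunit beside cytochrome c1, was at -0.01, 0.18 and 0.33 in HMGB2-KO livers, against -0.03, -0.23 and 0.06 in WT livers. HMGB2-KO liver 1 lies within the WT range, and the log2 fold change of 0.23 (SE 0.14) was 0.15 without WT liver 2 or without HMGB2-KO liver 3. Uqcrfs1, the Rieske iron-sulfur protein, was at 0.14, 0.11 and 0.13 in HMGB2-KO livers, against 0.02, -0.07 and 0.01 in WT livers. Its groups do not overlap, at 0.14 (SE 0.11). As deposited the log2 fold change was 0.02, and WT liver 2 held the highest of the 6 values. Uqcrc2, a core subunit, had the lowest value of the complex at -0.09 (SE 0.15), and was at 0.01 without WT liver 2, which here held the highest value of all livers, 0.54. Its partner core subunit Uqcrc1 was at 0.16 (SE 0.13) and the hinge protein gene Uqcrh at 0.15 (SE 0.14).

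Cytochrome c, Cycs, was at -0.55, -0.52 and -0.05 in HMGB2-KO livers, against -0.43, -0.35 and -0.21 in WT livers. The HMGB2-KO livers lie on both sides of the WT livers. The log2 fold change was -0.04 (SE 0.17), and its sign changed without WT liver 3 or without HMGB2-KO liver 1 or 2.

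In complex IV, cytochrome c oxidase, 14 of 20 genes were above 0 with a median of 0.10, or 8 of 20 and -0.02 as deposited and 12 of 20 and 0.02 without WT liver 2, and none passed an unadjusted p of 0.05. Ndufa4, an accessory subunit at its surface, was at 0.02, 0.04 and 0.05 in HMGB2-KO livers, against -0.18, -0.23 and -0.08 in WT livers. The HMGB2-KO livers are nearly alike and all above the WT livers, at a log2 fold change of 0.20 (SE 0.11, limma adjusted p = 0.994). Cox7c, a small membrane subunit, was at 0.23, 0.14 and 0.20 in HMGB2-KO livers, against 0.01, -0.01 and 0.04 in WT livers. Its log2 fold change was 0.18 (SE 0.11). Leaving out any 1 liver kept it between 0.16 and 0.20, and Ndufa4 between 0.17 and 0.24, whereas as deposited Cox7c was at 0.06 and Ndufa4 at 0.08.

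Several complex IV subunits come in pairs of a widely expressed and a tissue-restricted form, and the restricted genes are described beside their partners. The 8 restricted genes had a median of 0.04 with 4 above 0, and the 78 other subunit genes one of 0.09 with 60 above 0. Cox4i2, the form of lung and low oxygen, was at 0.16, 0.04 and 0.17 in HMGB2-KO livers, against -0.01, -0.31 and -0.11 in WT livers (log2 fold change 0.26, SE 0.13). It had the highest fold change of complex IV, above that of its common partner Cox4i1, at 0.07 (SE 0.11). Cox4i1 varied least among these pairs, between 0.12 and 0.28 over the 6 livers, and its 3 HMGB2-KO values lie just above the WT values, a fold change that was -0.05 as deposited.

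Cox7a1, the form of heart and skeletal muscle, had the lowest fold change of all subunit genes. It was at -0.04, 0.24 and -0.42 in HMGB2-KO livers, against 0.43, 0.24 and -0.03 in WT livers, a log2 fold change of -0.28 (SE 0.20), or -0.11 without HMGB2-KO liver 3. Its partner Cox7a2 was at -0.01 (SE 0.13). The other muscle forms Cox6a2 (-0.13, SE 0.19) and Cox8b (-0.01, SE 0.14) stood beside Cox6a1 (0.17, SE 0.14) and Cox8a (0.05, SE 0.13). Among the testis forms, Cox6b2 was at 0.13 (SE 0.14) with its partner Cox6b1 at 0.13 (SE 0.12). Cox7b2 was at -0.04 (SE 0.16) with Cox7b at -0.10 (SE 0.13). Cox8c was at 0.19 (SE 0.19), or -0.01 without WT liver 2. Ndufa4l2, a relative of Ndufa4 induced by low oxygen, was at 0.09 (SE 0.14), or -0.03 both as deposited and without WT liver 2. None of these differences within a pair was tested. Of 12 striated muscle markers 4 were higher and 8 lower, with a median of -0.09, and their part in the values of the muscle forms was not tested.

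Complex V, the ATP synthase, had 15 of 17 genes above 0 with a median of 0.11, or 8 of 17 and -0.01 as deposited, and 12 of 17 with 0.06 without WT liver 2. Atp5k, subunit e of the membrane part, which helps the enzyme to form dimers, was at 0.17, 0.19 and 0.33 in HMGB2-KO livers, against -0.00, -0.10 and -0.17 in WT livers. All HMGB2-KO livers lie above all WT livers, and here WT liver 3, not WT liver 2, is the lowest. The log2 fold change was 0.32 (SE 0.12, 95% confidence interval 0.04 to 0.60, limma adjusted p = 0.994). It lay between 0.27 and 0.36 with any 1 liver left out, and at 0.20 as deposited, where Atp5k did not pass the unadjusted threshold and the groups overlap. It did not pass that threshold either without WT liver 2, WT liver 3, HMGB2-KO liver 2 or HMGB2-KO liver 3, with the replicate numbers as a block, or within animals 38 to 41.

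Atp5j2, subunit f, which also sits in the membrane part, was at 0.17, 0.09 and 0.22 in HMGB2-KO livers, against -0.06, -0.33 and 0.13 in WT livers. The groups overlap through WT liver 3, and the log2 fold change of 0.24 (SE 0.15) was 0.12 without WT liver 2. Atp5h, subunit d of the stalk, was at 0.30, 0.15 and 0.32 in HMGB2-KO livers, against 0.13, 0.07 and 0.13 in WT livers. There was no overlap, at a log2 fold change of 0.15 (SE 0.12), but as deposited it was 0.03 and the groups overlap. The catalytic beta subunit Atp5b was at 0.11 (SE 0.13), the alpha subunit Atp5a1 at 0.14 (SE 0.13) and the gamma subunit Atp5c1 at 0.11 (SE 0.12), but as deposited at -0.01, 0.03 and -0.01, and without WT liver 2 at 0.02, 0.06 and 0.06.

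Atp5g1, Atp5g2 and Atp5g3 encode the same mature ring subunit c behind different import signals. They were at 0.08 (SE 0.13), 0.14 (SE 0.14) and 0.09 (SE 0.12), but as deposited at -0.04, 0.02 and -0.03, and without WT liver 2 at -0.01, 0.06 and 0.02. Atp5pb, subunit b of the stalk, had the lowest fold change of the complex, -0.11 (SE 0.13). It was at 0.16, 0.16 and 0.32 in HMGB2-KO livers, against 0.23, 0.25 and 0.48 in WT livers. Within each genotype liver 3 was the highest, and the fold change was -0.03 without WT liver 3. Atp5j, coupling factor 6, had one of the narrowest ranges, from 0.06 to 0.22.

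**Figure D4:**
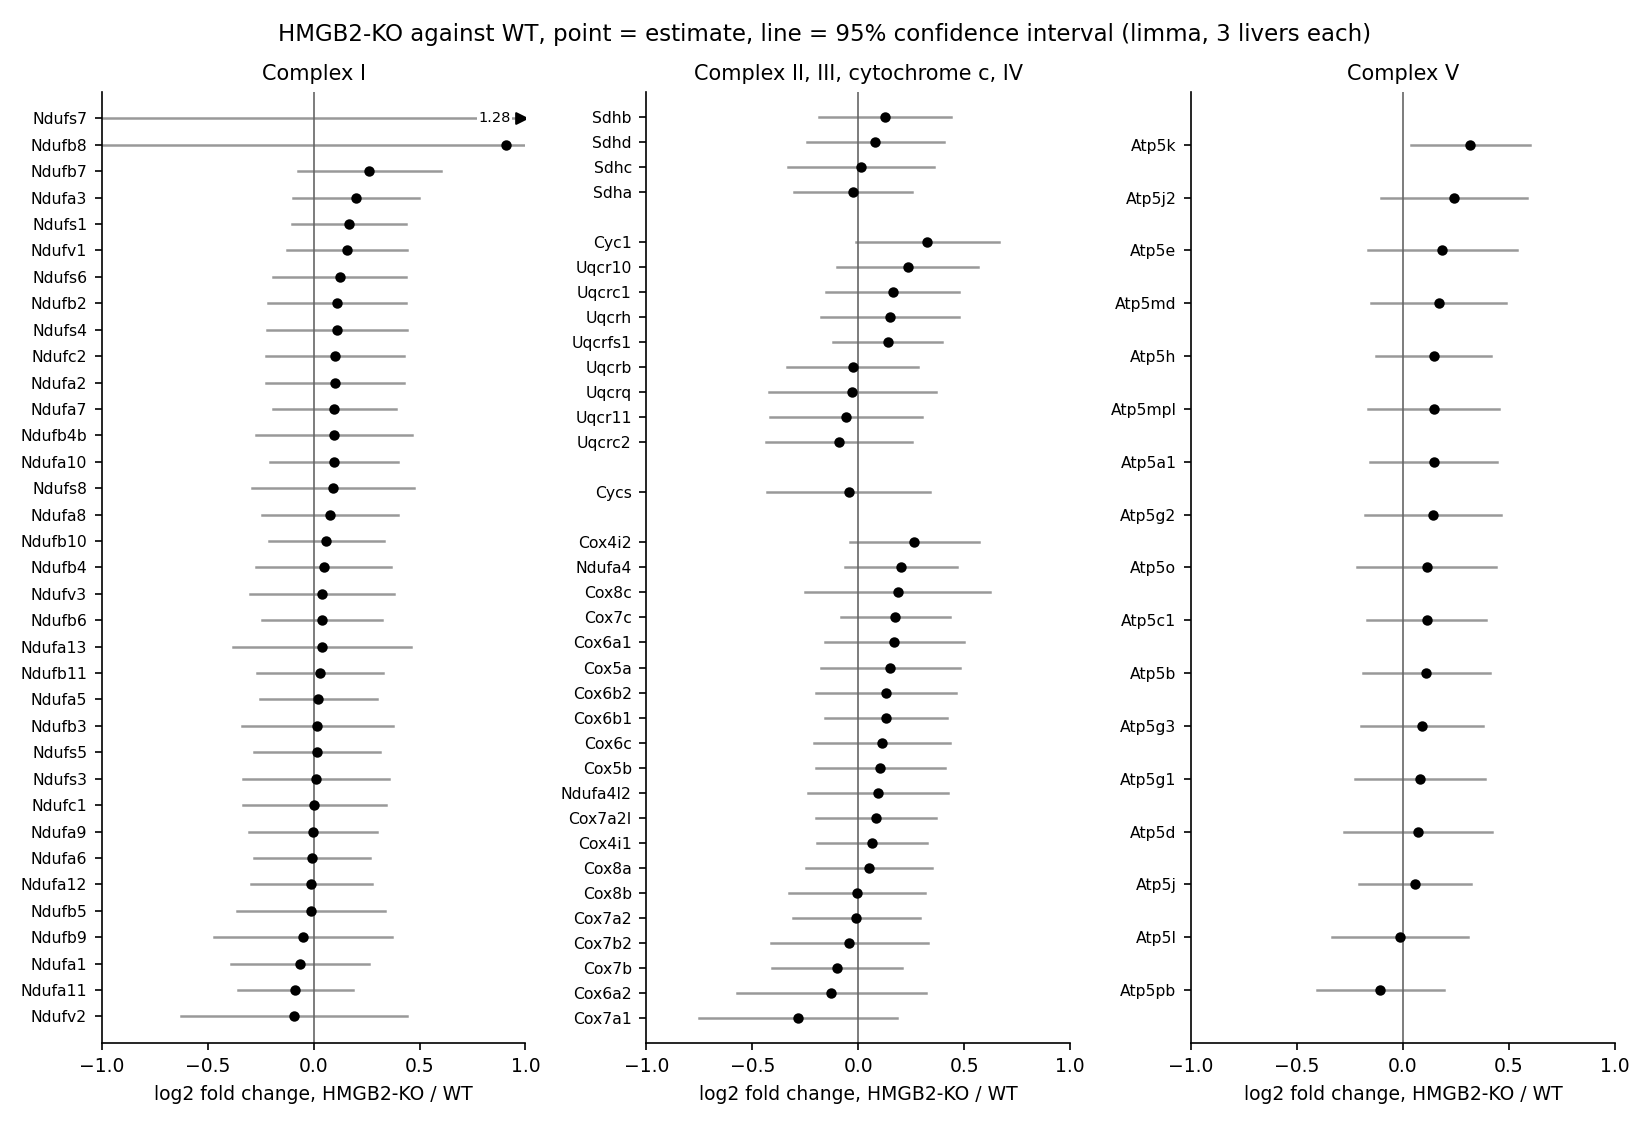
log2 fold change, HMGB2-KO over WT (x axis), of the 86 subunit genes (y axis) by complex, with the limma estimate as a point and its 95% confidence interval as a line, drawn to -1 and 1 where it goes further. The arrow marks Ndufs7 at 1.28, and Atp5k is the only gene whose interval, from 0.04 to 0.60, leaves out 0.

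Over all complexes, the 3 HMGB2-KO livers lay above the 3 WT livers for 11 of 86 genes (12.8%, beside 4.32% of all genes) and below them for 0 (beside 5.35%). The 11 are Ndufb7, Ndufa3, Ndufs1, Ndufv1, Uqcrfs1, Cox4i1, Cox4i2, Ndufa4, Cox7c, Atp5h and Atp5k. As deposited 1 gene lay above (1.16%, beside 0.795%), namely Ndufb7, and 2 below (2.33%, beside 10.6%), Atp5l and Cox7b. Without WT liver 2 it was 12 above (14.0%, beside 8.3%) and 4 below (4.65%, beside 9.62%).

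Direction was also followed over the 16 settings. Of the 86 genes 25 were above 0 in every setting (29.1%, beside 17.3% of all genes) and 4 below 0 (4.65%, beside 24.9%). The 25 were 4 genes of complex I, 1 of complex II, 5 of complex III, 7 of complex IV and 8 of complex V, and Cyc1, Uqcr10, Ndufa4, Cox7c and Atp5k are among them. The 4 were Ndufa11, Cox7a1, Cox7b and Atp5pb. As deposited 35 of the 86 changed sign, and without WT liver 2 it was 23. These settings share livers and are no independent repeats.

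**Figure D5:**
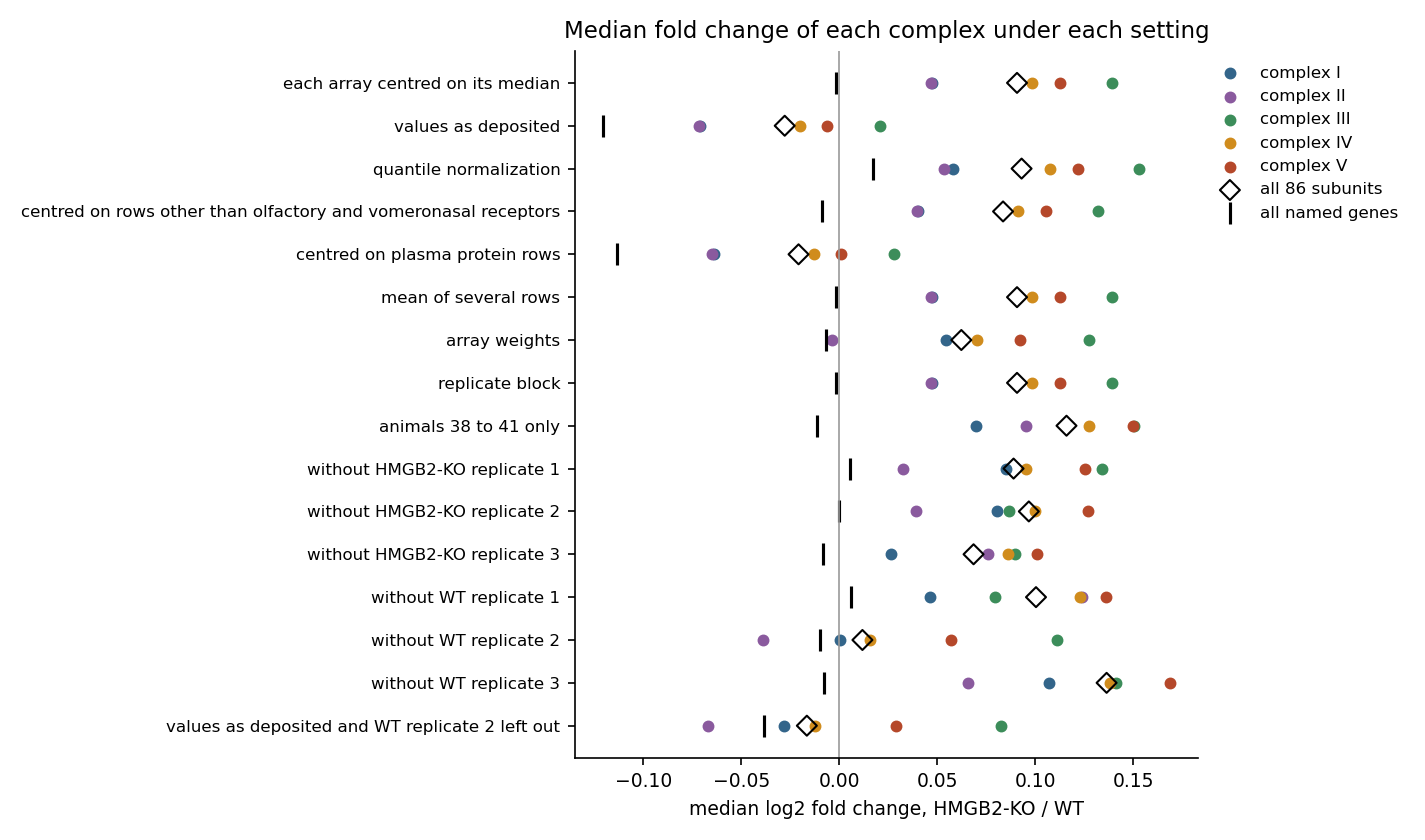
Median log2 fold change, HMGB2-KO over WT (x axis), of each complex, of all 86 subunits (diamonds) and of all named genes (bars) under each of 16 settings (y axis). As deposited the diamond is at -0.03 and the bar at -0.12, without WT replicate 2 the diamond is at 0.01, and complex III stays right of 0 throughout.

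The promoters of subunit genes were searched for the sites of factors known to drive respiratory genes, to see what the members share beyond their names. RefSeq start sites (GRCm38.p6) were found for 70 of the 86 genes, with 75 windows of 300 bases, 250 before and 50 after a start. The palindromic site of NRF1, whose letters stand in capitals in the first set of sequences, was in 5 of 75 windows (6.67%, beside 0.971% of the 32851 windows of all genes). The site of ETS factors such as GABP, CCGGAAG, was in 17 (22.7%, beside 8.86%), and that of YY1, AAGATGGC, in 10 (13.3%, beside 2.75%). The cAMP response element TGACGTCA was in 5 (6.67%, beside 1.79%) and the site of ERR receptors TCAAGGTCA in 2 (2.67%, beside 0.423%). Both strands were read, and no matches of different motifs overlapped in these windows. Any of the 5 motifs was in 34 windows of 34 genes (45.3%, beside 13.7%). These genes had a median log2 fold change of 0.12 with 28 of 34 above 0, beside 0.09 and 64 of 86 for all subunit genes. A match is a description of the letters and not a bound site, and expression and promoter were not tested against each other.

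Atp5k, the one gene past the unadjusted threshold, holds the NRF1 site before its start, as do Atp5g2, Cox6a1 and Ndufa11. They are shown because NRF1 is the classic driver of this gene class, with the site in capitals and 5′ to 3′ along the gene. Atp5k is at chr5:108434400-108434649, Atp5g2 at chr15:102671055-102671114 and Cox6a1 at chr5:115349086-115349145, all on the minus strand, and Ndufa11 at chr17:56717677-56717736 on the plus strand.
Atp5k: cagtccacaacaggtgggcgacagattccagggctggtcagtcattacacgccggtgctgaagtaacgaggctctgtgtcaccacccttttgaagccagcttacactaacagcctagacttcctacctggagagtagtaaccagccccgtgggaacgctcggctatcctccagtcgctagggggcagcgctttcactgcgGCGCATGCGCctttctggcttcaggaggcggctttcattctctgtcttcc
Atp5g2: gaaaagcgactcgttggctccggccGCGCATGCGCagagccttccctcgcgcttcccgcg
Cox6a1: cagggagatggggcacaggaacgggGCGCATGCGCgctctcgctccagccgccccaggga
Ndufa11: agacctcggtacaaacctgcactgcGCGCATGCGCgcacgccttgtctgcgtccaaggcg
Uqcrc1 has its NRF1 site after the start. The 5 genes with an NRF1 site lay between -0.09 (Ndufa11) and 0.32 (Atp5k), with 4 of 5 above 0. Of the markers given with the gene set, Cyc1 had no window, and Uqcr10, Ndufa4 and Cox7c held none of the 5 motifs.

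The cAMP response element, through which hormone signals of fasting such as glucagon act, is shown in the 5 genes that hold it. Cycs lies at chr6:50566704-50566763, Ndufa10 at chr1:92473791-92473850 and Uqcrfs1 at chr13:30545317-30545376 on the minus strand. Ndufa11 lies at chr17:56717579-56717638 and Ndufb2 at chr6:39592505-39592564 on the plus strand.
Cycs: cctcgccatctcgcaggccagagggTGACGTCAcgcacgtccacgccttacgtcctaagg
Ndufa10: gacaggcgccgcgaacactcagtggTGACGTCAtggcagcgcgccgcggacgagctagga
Ndufa11: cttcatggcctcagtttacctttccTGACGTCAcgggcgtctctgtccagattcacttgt
Ndufb2: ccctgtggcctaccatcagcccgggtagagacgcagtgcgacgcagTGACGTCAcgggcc
Uqcrfs1: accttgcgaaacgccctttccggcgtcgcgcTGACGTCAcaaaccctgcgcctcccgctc
These genes lay between -0.09 (Ndufa11) and 0.14 (Uqcrfs1), with 3 of 5 above 0. Ndufa11 holds both sites and was one of the 4 genes below 0 in every setting.

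Other genes of mitochondrial energy metabolism are given from lists for the parts around the subunits. Of 18 measured assembly factors of complex I 11 were above 0 (median 0.03), and of 10 for complexes II and III 6 (0.02). For complex IV it was 17 of 21 (0.07) and for complex V 3 of 5 (0.03). None of these assembly factors passed an unadjusted p of 0.05. The smallest p-values belonged to Dmac2 (0.28, SE 0.13) and Nubpl (0.29, SE 0.15), which inserts iron-sulfur clusters into complex I, to Bcs1l (0.30, SE 0.14), which places the Rieske protein, and Sdhaf1 (-0.20, SE 0.12), which serves the iron-sulfur subunit of complex II. Coa6 (-0.34, SE 0.21) and Coa7 (0.26, SE 0.18) had them for complex IV, and Atpif1 (-0.23, SE 0.15), the inhibitor of ATP synthase, and Tmem70 (0.29, SE 0.21) for complex V, and Tmem70 was at 0.05 without WT liver 2.

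Of 76 mitochondrial ribosomal protein genes, which make the subunits encoded by mitochondrial DNA, 51 were above 0 with a median of 0.06, or -0.06 as deposited and 0.01 without WT liver 2. Mrps10 had an unadjusted p of 0.0274 in limma (0.34, SE 0.12, adjusted p = 0.994), and Mrpl22 stood at -0.26 (SE 0.13). Mrps10 was the 1 gene of the 76 under 0.05, beside 3.68% of all genes. Import genes had 17 of 25 above 0 (median 0.07), with Timm8a2 at -0.48 (SE 0.16) and Tomm20l at 0.24 (SE 0.12). Timm8a2 was the 1 gene of these 25 past the unadjusted threshold, beside the same 3.68% of all genes. Citric acid cycle genes had 11 of 18 above 0 (median 0.04), with Ogdh at 0.18 (SE 0.12) and Sucla2 at 0.16 (SE 0.12). Genes that feed ubiquinone or make it had 11 of 16 above 0 (median 0.07), led by Coq7 at 0.24 (SE 0.13) and Chdh at 0.24 (SE 0.16). A list of carriers, porins and the prohibitins had 10 of 14 above 0 (median 0.11). Its smallest p-values belonged to the aspartate-glutamate carrier Slc25a12 at 0.28 (SE 0.14) and to Phb, a prohibitin of the inner membrane that is not a carrier, at 0.21 (SE 0.16), or 0.08 without WT liver 2. As deposited all of these medians, and those of the assembly factors, were below 0. Without WT liver 2 they were -0.00 for import, -0.01 for the citric acid cycle, -0.02 for complex I assembly and -0.01 for complex II and III assembly. The other lists stayed above 0 without it. Carriers, porins and prohibitins were at 0.04, complex IV assembly at 0.03, genes that feed or make ubiquinone at 0.02 and complex V assembly at 0.02.

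Regulators of mitochondrial biogenesis had 11 of 20 genes above 0 with a median of 0.00, or -0.11 as deposited. Perm1, a partner of these regulators known from muscle, was at -0.27, -0.01 and -0.40 in HMGB2-KO livers, against 0.12, 0.42 and 0.56 in WT livers. The groups do not overlap, and the log2 fold change was -0.60 (SE 0.17, limma adjusted p = 0.994). It was -0.71 as deposited and -0.57 without WT liver 2. Perm1 was the 1 gene of these 20 past an unadjusted p of 0.05, beside 3.68% of all genes. Polg2, a subunit of the mitochondrial DNA polymerase, was at 0.27 (SE 0.12).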

How the data were processed

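Total RNA of 6 livers was extracted with Trizol and biotin-labelled for Clariom S arrays, per the labels' protocols. The deposited values are on a log scale, taken as log2, from -8.60 to 6.93, each relative to an unknown row baseline; the base, summarization and normalization were not given in the sources used here. Depth does not apply: the number of arrays limits precision. Gene names came from the platform's annotation (19572 with 1 symbol, 0 with several, 2634 unnamed). For 55 genes with several rows the highest mean was kept, a case that touches 0 subunit genes. No filter on low values was possible.

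The median of each array was subtracted. The test was limma 3.58.1 (lmFit, eBayes, two-sided, genotype only) under R 4.3.3, with Benjamini-Hochberg adjustment over 19505 genes. The fit was tested on simulated data. Motifs were searched with Python 3.11.15. Named genes are the 4 markers given with the gene set, and per complex the 3 smallest p-values and the extremes of fold change. Up to 8 genes without overlap, complex II, Cycs, isoform pairs, the 3 widest and narrowest ranges, and 2 genes per other list are named too. Other subunits named beside these were chosen after their values were seen. The members and lists were chosen with earlier results of these data known. No 2 arrays held identical values.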

Additional observations from a re-analysis of the deposited data

How the results depend on the processing

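No subunit gene passed the adjusted threshold under any of the 16 settings. The count at an unadjusted p of 0.05, 1 with all livers, was 0 as deposited, centred on plasma proteins, with the replicate block, within animals 38 to 41 and as deposited without WT replicate 2 (an alternative chosen after seeing the data), and 0 to 2 with 1 liver left out. The median log2 fold change was -0.028 as deposited, -0.021 centred on plasma proteins and -0.017 as deposited without WT replicate 2, with 29, 32 and 36 genes above 0, and 0.01 to 0.14 with 1 liver left out (49 to 74 genes). The cause was not tested. Whether the replicate numbers pair the livers is not settled here. Deviations of same-numbered livers correlated at 0.04, 0.13 and 0.29. HMGB2-KO replicates 2 and 3 correlated best with the WT replicate of their own number, but HMGB2-KO replicate 1 with WT replicate 2 (0.10). Replicates 3 are animals 31 and 32, and the others are animals 38 to 41. With the replicate block 858 genes in all had an unadjusted p under 0.05, against 717.

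Of the 86 genes 35 changed sign as deposited, 32 centred on plasma proteins, 32 as deposited without WT replicate 2 and 9 to 23 with 1 liver left out. Genes named in the text are given here, and the cause was not tested. As deposited Atp5j was at -0.061, Cox4i1 at -0.052, Cox8a at -0.067, Ndufa4l2 at -0.026, Sdhc at -0.11 and Sdhd at -0.038. Centred on plasma proteins these were at -0.054, -0.045, -0.060, -0.019, -0.098 and -0.031. As deposited without WT replicate 2 Atp5j was at -0.011, Cox7b2 at 0.070, Cox8a at -0.058, Cox8c at -0.039, Ndufa4l2 at -0.061, Ndufs7 at -0.12, Sdhc at -0.13 and Sdhd at -0.037. With quantile normalization Cox7b2 was at 0.0096, Cox8b at 0.0081, Ndufa6 at 0.015 and Sdha at 0.0019. With array weights Cox7b2 was at 0.016, Cox8b at 0.0025, Ndufa6 at 0.012 and Sdhc at -0.029. Within animals 38 to 41 Cox6a2 was at 0.12, Cox7a2 at 0.084, Cox8b at 0.12 and Ndufa6 at 0.043. With 1 liver left out the ranges were -0.12 to 0.099 for Cox7b2, -0.20 to 0.043 for Cycs, -0.24 to 0.11 for Ndufv2, -0.084 to 0.062 for Cox7a2 and -0.055 to 0.023 for Ndufa6. They were -0.10 to 0.083 for Sdhc, -0.098 to 0.10 for Cox8b, -0.25 to 1.53 for Ndufb8, -0.069 to 0.040 for Sdha, -0.029 to 0.098 for Cox8a and -0.011 to 0.34 for Cox8c. For Ndufa4l2 the range was -0.033 to 0.16, for Ndufs7 -0.089 to 2.02, for Sdhd -0.0085 to 0.18, for Uqcrc2 -0.21 to 0.012 and for Cox6a2 -0.28 to 0.0076. Subunits named beside these turned too. As deposited Atp5b was at -0.0080, Atp5c1 at -0.0062, Atp5g1 at -0.039, Atp5g3 at -0.030, Ndufb4 at -0.071 and Ndufb4b at -0.021. Centred on plasma proteins Atp5b was at -0.00093, Atp5g1 at -0.032, Atp5g3 at -0.022, Ndufb4 at -0.064 and Ndufb4b at -0.014. As deposited without WT replicate 2 the same 5 were at -0.0075, -0.042, -0.0055, -0.018 and -0.050. With 1 liver left out Atp5g1 ranged from -0.014 to 0.13, Ndufb4 from -0.018 to 0.15 and Ndufb4b from -0.021 to 0.25.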
